A study of Mus musculus with 9 samples.

Results

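Hearts whose sample titles begin with KKA were compared with hearts whose titles begin with WC, across all genes of a poly(A) RNA sequencing experiment on C57BL/6 mice, an inbred laboratory strain. The groups were taken from the letters at the start of the title, which gives 3 KKA libraries and 3 WC libraries, 6 of the 9 libraries of the series. KKA 1 is KKA_K084, KKA 2 is KKA_187 and KKA 3 is KKA_186, and all of them are described as Kmo+Ang II with the treatment Ang II (angiotensin II, a hormone that narrows blood vessels). WC 1 is WC_184, described as Ctrl with the treatment PBS, a salt buffer. WC 2 is WC_3 and WC 3 is WC_182, both described and treated as Ang II. The other 3 libraries, titled WA, held 2 labelled Ctrl (PBS) and 1 labelled Ang II, and they entered the fit as a group of their own. The labels do not say what KKA, WC, WA or Kmo stands for, and give no age, sex, dose or duration. Whether each library came from its own mouse is not stated, so the p-values measure the spread between these libraries, which may be technical. Because every KKA heart was given Ang II, while WC 1 was given PBS and WC 2 and WC 3 Ang II, the letters and the treatment cannot be fully told apart.

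The series concerns JOSD2, a deubiquitinating enzyme that removes ubiquitin from proteins, and SERCA2a, the pump encoded by Atp2a2 that returns calcium to the sarcoplasmic reticulum after each beat. A heart under pressure load is known to switch on genes of the fetal heart, among them the natriuretic peptides Nppa and Nppb and skeletal actin Acta1, and to lay down collagen. Whole-heart RNA also holds the RNA of the blood in the chambers and vessels, of which young red cells carry haemoglobin messages. In bulk RNA of this kind, fewer cells of a type and less RNA per cell cannot be told apart.

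The 6 libraries held between 56827533 and 73194268 counts, and 19091 genes had enough counts to be tested. Levels are given as CPM, counts scaled to a common library size after TMM normalisation, and differences as log2 of KKA over WC with a standard error (SE) from edgeR's quasi-likelihood test. Heart muscle markers were abundant in every library, with Tnnt2, the troponin T of heart muscle, at 7425, 6763 and 3143 CPM in KKA hearts, against 5028, 4302 and 4754 CPM in WC hearts.

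No gene passed an adjusted p of 0.05 in edgeR's quasi-likelihood test, 0% of those tested, and the smallest adjusted p was 0.210. At an unadjusted p under 0.05, 449 genes were higher in KKA hearts (2.35%) and 222 were lower (1.16%). In 698 genes (3.66%) all KKA libraries lay above all WC libraries, and in 751 genes (3.93%) all lay below. DESeq2's Wald test called 27 genes and limma-voom called 0. The median log2 difference over all tested genes was 0.05, and 55.7% of genes had a positive difference. With library size as the only scaling this median was -0.13, so differences of that order depend on the scaling.

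The KKA libraries were less alike than the WC libraries. The root mean square log2 difference between pairs of KKA libraries was 1.07, 1.12 and 1.3, against 0.787, 0.851 and 0.866 between pairs of WC libraries. Pairs of a KKA and a WC library differed by 0.832 to 1.13, so KKA 1 and KKA 3 were further from each other than any KKA library was from any WC library. KKA 1 lay more than 1 log2 unit above all the other 5 libraries in 596 genes and below them in 687, and KKA 3 did so in 643 and 493 genes. For KKA 2 these counts were 108 and 226, and for the WC libraries they were 32 to 53 and 173 to 264. KKA 2 was thus the KKA library nearest to WC hearts, and many values for groups of genes below are also given without a single KKA library.

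Red-cell genes, with Tent5c and Cpeb3, were among the genes of smallest p and lay lower in KKA hearts. Hbb-bs, an adult beta chain of haemoglobin, had 177, 165 and 109 CPM in KKA hearts, against 2071, 2426 and 991 CPM in WC hearts. Hba-a1, an adult alpha chain, had 118, 140 and 101 CPM in KKA hearts, against 2199, 1975 and 856 CPM in WC hearts. Every KKA library was below every WC library for both chains, and the WC library given PBS was high together with both given Ang II. The log2 differences were -3.61 ± 0.57 for Hbb-bs, -3.81 ± 0.60 for Hba-a1, -3.80 ± 0.58 for Hba-a2 and -3.72 ± 0.58 for Hbb-bt (SE, n = 3 each), and edgeR's adjusted p was 0.210 for each of the 4 genes. These chains share near-identical sequence between copies, so how counts were divided within the alpha pair or within the beta pair is uncertain.

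The promoters of a beta chain gene, an alpha chain gene and Alas2 are shown because these are the red-cell genes that lead the difference. Each sequence is the 250 bases before the start site, from the RefSeq promoter table on build GRCm38.p6, which is another build than the one used for the counts. Hbb-bs lies at chr7:103827929-103828178 on the minus strand, Hba-a1 at chr11:32283422-32283671 on the plus strand and Alas2 at chrX:150547167-150547416 on the plus strand. Capitals mark 3 motifs known from red-cell promoters, searched on both strands: AGATAA, the letters bound by GATA factors, CACCC, bound by factors of the KLF family, and CCAAT, bound by NF-Y and related factors. The matches do not overlap.
Hbb-bs: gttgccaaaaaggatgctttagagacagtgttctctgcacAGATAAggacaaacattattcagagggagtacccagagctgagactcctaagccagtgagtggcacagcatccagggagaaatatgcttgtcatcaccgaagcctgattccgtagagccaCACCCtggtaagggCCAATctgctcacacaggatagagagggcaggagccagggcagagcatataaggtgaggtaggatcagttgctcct
Hba-a1: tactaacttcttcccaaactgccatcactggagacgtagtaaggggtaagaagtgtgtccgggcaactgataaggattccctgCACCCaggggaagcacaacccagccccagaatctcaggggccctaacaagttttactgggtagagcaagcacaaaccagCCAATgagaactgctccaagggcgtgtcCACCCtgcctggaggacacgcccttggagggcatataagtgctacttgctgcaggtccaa
Alas2: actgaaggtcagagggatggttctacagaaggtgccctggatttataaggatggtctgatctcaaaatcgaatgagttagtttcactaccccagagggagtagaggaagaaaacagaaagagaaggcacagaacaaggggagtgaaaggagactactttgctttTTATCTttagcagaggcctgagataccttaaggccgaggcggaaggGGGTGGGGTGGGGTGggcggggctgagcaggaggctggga

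Hbb-bs held 1 AGATAA, 1 CACCC and 1 CCAAT, Hba-a1 held 2 CACCC and 1 CCAAT, and Alas2 held 1 AGATAA and 3 CACCC. Among all 32851 promoters of the same length, AGATAA or its reverse complement was found in 9.99%, CACCC in 52% and CCAAT in 33.8%. Of 10 red-cell genes looked up, 8 had an entry, with 9 promoters between them, and 3 of those held AGATAA, 7 held CACCC and 6 held CCAAT. These are matches of letters and do not show binding. A promoter without AGATAA, such as that of Hba-a1, may still hold another form of the GATA site.

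Other genes active in red cells, and Tent5c, which was not on the red-cell list, followed the haemoglobin chains. Alas2 encodes the first enzyme of haem synthesis in red-cell precursors, and had 4.75, 4.85 and 3.10 CPM in KKA hearts, against 62.0, 68.8 and 27.8 CPM in WC hearts. The log2 difference was -3.64 ± 0.60 (SE, n = 3 each, edgeR adjusted p = 0.223). Tent5c encodes a poly(A) polymerase that lengthens the tails of messages, and had 1.06, 1.17 and 1.40 CPM in KKA hearts, against 11.2, 18.0 and 4.10 CPM in WC hearts. All KKA values were low and close together, while WC values were spread more than 4-fold, and the log2 difference was -3.20 ± 0.48 (SE, n = 3 each, edgeR adjusted p = 0.210). Bpgm makes the compound that lowers the oxygen affinity of haemoglobin, and had 10.8, 8.05 and 7.30 CPM in KKA hearts, against 32.0, 44.9 and 17.8 CPM in WC hearts. Its log2 difference was -1.86 ± 0.34 (SE, n = 3 each, edgeR adjusted p = 0.359). For Alas2, Tent5c and Bpgm every WA library also lay below every WC library.

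Proteins of the red-cell membrane gave the same order at low levels. Slc4a1, the anion exchanger band 3, had 0.155, 0.412 and 0.355 CPM in KKA hearts, against 6.2, 14.5 and 1.17 CPM in WC hearts (log2 difference -4.58 ± 0.99, edgeR adjusted p = 0.883). Epb42, a band of the membrane skeleton, had 0, 4 and 0 counts in KKA hearts, against 31, 96 and 20 counts in WC hearts. Epb42 was thus near the limit of detection in KKA hearts, where 0 counts allow up to 3. Tfrc, the transferrin receptor that brings iron into most cells, had a smaller difference of -0.50 ± 0.21 on the log2 scale (SE, n = 3 each, edgeR adjusted p = 0.995), with 15.3, 15.2 and 12.6 CPM in KKA hearts, against 16.1, 25.5 and 19.2 CPM in WC hearts. Fech, the last enzyme of haem synthesis, overlapped between the groups, with a difference of -0.09 ± 0.27.

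Of the 19 red-cell genes listed, 13 had enough counts to be tested, and some of those passed the count filter only through the WC libraries, where they were high. None of the 13 was called by edgeR, 11 had all KKA libraries below all WC libraries (over all tested genes, 3.93%), and the median log2 difference was -3.64 (all tested genes, 0.05). The median stayed between -3.95 and -3.28 over all 18 alternatives. Haemoglobin genes made up 0.0541%, 0.0516% and 0.0267% of all counts in KKA hearts, against 0.603%, 0.987% and 0.345% in WC hearts. The mean shares were 0.0441 ± 0.0152% in KKA hearts and 0.645 ± 0.323% in WC hearts (SD, n = 3 each), and the two-sided exact permutation test gave p = 0.1, the smallest that 3 against 3 allows (p = 0.2 adjusted over 2 shares). Exact binomial 95% intervals of these shares were at most 0.00491 percentage points wide, and cover counting error only. The WA hearts had 0.0279 ± 0.0118% (SD, n = 3), a level nearer to KKA hearts than to WC hearts. Markers of other blood cells did not order the groups in this way. The 16 platelet genes summed to 48.8, 78.6 and 170 CPM in KKA hearts, against 108, 132 and 87.2 CPM in WC hearts, and the 15 neutrophil genes to 9.31, 458 and 83 CPM in KKA hearts, against 55.0, 234 and 55.5 CPM in WC hearts. Both ranges overlapped, and whether blood left in the tissue had a part in the red-cell result was not tested. With library size as the only scaling, edgeR called 7 genes, among them the 4 haemoglobin genes, Alas2 and Tent5c, and without a low-count filter it called Hbb-bs, Hba-a1, Hba-a2 and Tent5c. DESeq2's Wald test called the 4 haemoglobin genes, with adjusted p between 9.317e-11 and 2.072e-10, and also Alas2 (4.708e-08), Tent5c (3.025e-08) and Bpgm (0.000322), while limma-voom called none of them.

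**Figure D1:**
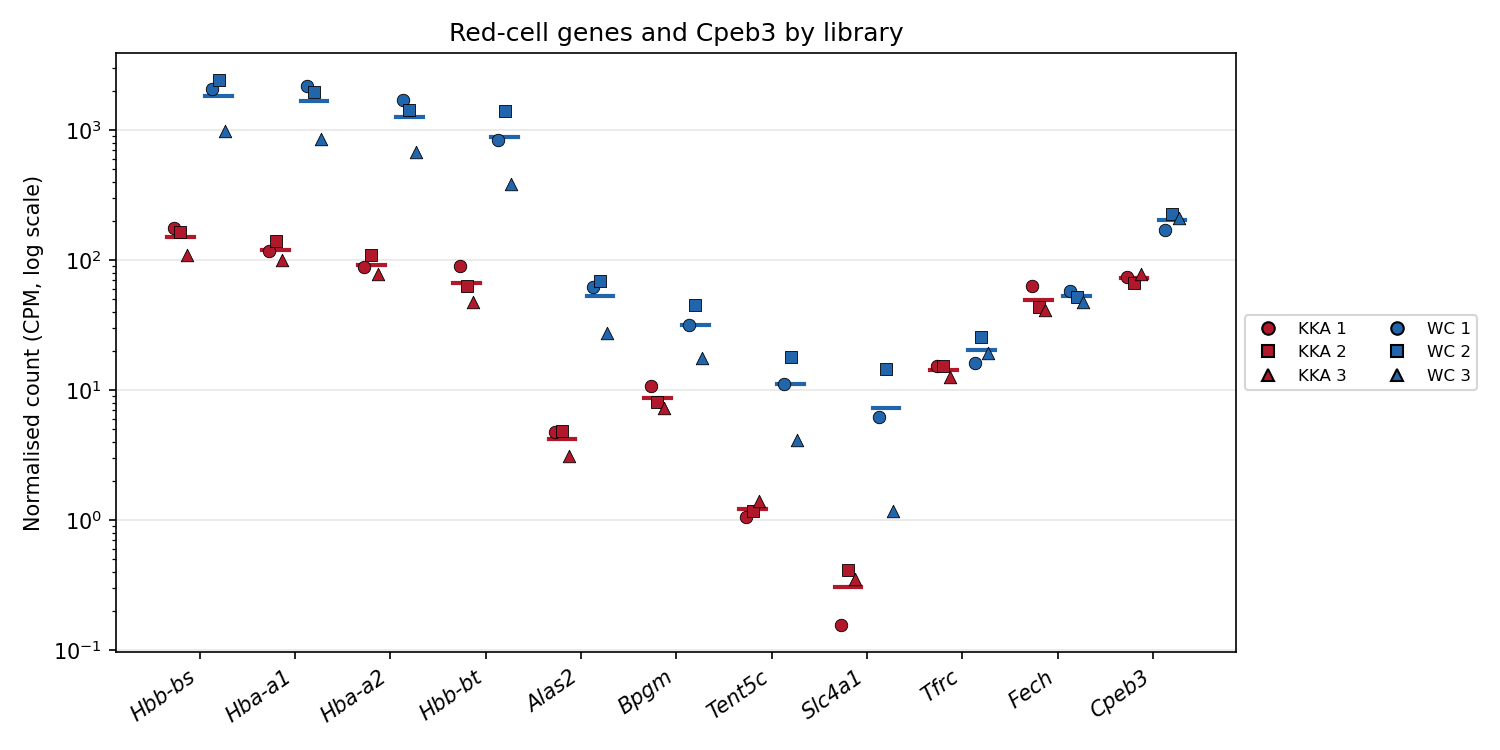
Normalised counts (CPM, log scale) of 9 listed red-cell genes, Tent5c and Cpeb3 in each KKA library (red, left) and WC library (blue, right), with a bar at each group's mean. The KKA libraries lie below every WC library for all genes drawn except Fech, where the groups overlap.

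Cpeb3 and Irx2 were the lower genes of smallest p, besides Tent5c, that were not on the red-cell list. Cpeb3 encodes a protein that binds messages and controls their translation, and had 74.1, 66.3 and 78.7 CPM in KKA hearts, against 172, 225 and 210 CPM in WC hearts. Its values were tight within each group, with a log2 difference of -1.47 ± 0.24 (SE, n = 3 each, edgeR adjusted p = 0.223). Irx2, an Iroquois transcription factor, had 1.73, 2.97 and 1.91 CPM in KKA hearts, against 5.46, 6.96 and 5.04 CPM in WC hearts. Its log2 difference was -1.40 ± 0.29 (SE, n = 3 each, edgeR adjusted p = 0.778). DESeq2's Wald test called both, with an adjusted p of 3.025e-08 for Cpeb3 and 0.00541 for Irx2. The WA hearts had 85.5, 71.65 and 106.5 CPM of Cpeb3 and 2.19, 2.03 and 2.04 CPM of Irx2. These levels were nearer to KKA hearts than to WC hearts.

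The 10 higher genes of smallest p were chosen in the same way, from genes without overlap and with a mean log2 CPM of at least 1. None of them was called by edgeR, and they included several made by stressed muscle and by matrix cells. Nppa, the atrial natriuretic peptide, had 1186, 121 and 1101 CPM in KKA hearts, against 114, 107 and 48.0 CPM in WC hearts. KKA 1 and KKA 3 were far above every WC library and KKA 2 was barely above the highest, and the log2 difference was 3.16 ± 0.73 (SE, n = 3 each, edgeR adjusted p = 0.995). Ankrd1, a stretch-responsive protein of the sarcomere and nucleus, had 1723, 247 and 204 CPM in KKA hearts, against 150, 65.2 and 119 CPM in WC hearts, and here KKA 1 alone was far above. Thbs4, a matrix protein of loaded muscle and tendon, had 12.8, 1.83 and 8.94 CPM in KKA hearts, against 1.67, 1.75 and 1.28 CPM in WC hearts, the same order of libraries as Nppa. The log2 differences were 2.70 ± 0.76 for Ankrd1 and 2.33 ± 0.56 for Thbs4 (SE, n = 3 each, edgeR adjusted p = 0.995). WA hearts were high too, so these levels were not particular to KKA hearts. They had 604, 1222 and 808 CPM of Nppa, 1329, 1374 and 818 CPM of Ankrd1, and 14.4, 11.2 and 7.5 CPM of Thbs4. WA 1 and WA 2 were labelled Ctrl (PBS). Without KKA 2, edgeR called Nppa (log2 difference 3.68, adjusted p = 0.0492) and Thbs4 (2.81, adjusted p = 0.0254). DESeq2's Wald test with all libraries called Thbs4 (adjusted p = 0.0188), Pam (0.0369), Enah (0.0446) and Nppa (0.0498).

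Others of these 10 genes showed a similar order. Pam, which finishes peptide hormones and is abundant in atrial muscle, had 251, 71.6 and 226 CPM in KKA hearts, against 64.8, 63.6 and 49.7 CPM in WC hearts (log2 difference 1.63 ± 0.41). Enah, a regulator of actin filaments, had 139, 38.6 and 62.4 CPM in KKA hearts, against 24.3, 17.5 and 29.4 CPM in WC hearts (1.76 ± 0.44). Itga9, an integrin chain, had 25.9, 8.63 and 19.0 CPM in KKA hearts, against 7.46, 6.25 and 7.80 CPM in WC hearts (1.32 ± 0.34). In each of the 3 genes KKA 2 lay closest to the WC libraries. Dapp1, an adaptor of lymphocyte signalling, had 12.8, 13.2 and 8.62 CPM in KKA hearts, against 6.27, 5.70 and 6.2 CPM in WC hearts (0.93 ± 0.22). For this gene KKA 2 was as high as KKA 1. Aebp2, a DNA-binding partner of Polycomb complex 2, had a log2 difference of 1.02 ± 0.28, and the edgeR adjusted p was 0.995 for each of the 5 genes. For all 5 genes every WA library also lay above every WC library.

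**Figure D2:**
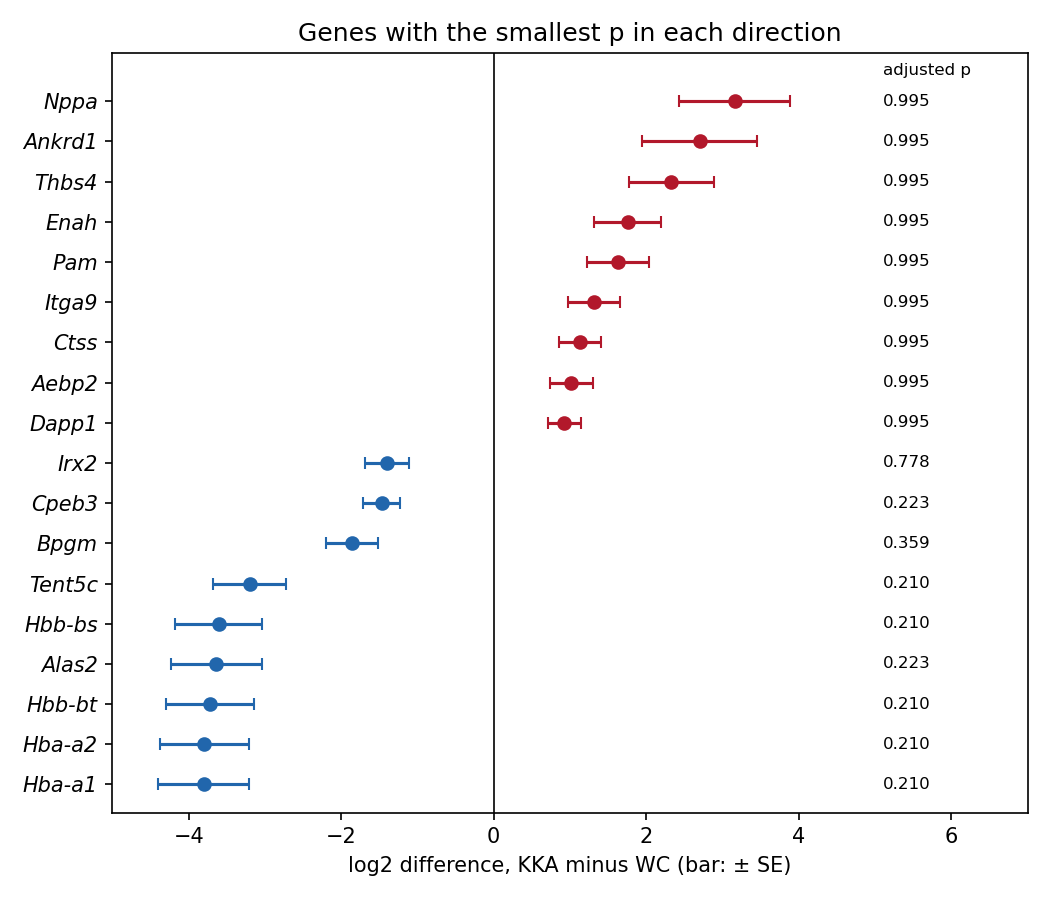
Log2 difference, KKA minus WC, with its SE for 9 of the 10 genes of smallest p in each direction that had no overlap between groups and a mean log2 CPM of at least 1. Red points are higher in KKA and blue points lower, and edgeR's adjusted p, printed at the right, is 0.210 or more for every gene.

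Genes of the fetal and hypertrophic heart had higher values in KKA hearts as a list, with the highest level in KKA 1. All 20 tested of 22 listed had a positive difference (all tested genes, 55.7%), with a median log2 difference of 1.11, and 10 had an unadjusted p under 0.05 (over all tested genes, 2.35% higher). In 5 of the 20 all KKA libraries lay above all WC libraries (over all tested genes, 3.66%). Acta1, skeletal actin, had 633, 39.6 and 13.0 CPM in KKA hearts, against 11.5, 11.3 and 17.4 CPM in WC hearts. Nppb, the brain natriuretic peptide, had 533, 96.8 and 23.2 CPM in KKA hearts, against 53.3, 35.9 and 20.6 CPM in WC hearts. KKA 1 was high for both, KKA 2 less so, and KKA 3 lay among the WC libraries, so the groups overlapped (log2 differences 4.09 ± 1.19 for Acta1 and 2.57 ± 0.88 for Nppb, edgeR adjusted p = 0.995 for both). Myh7, the slow myosin heavy chain that marks hypertrophy, had 1291, 1114 and 733 CPM in KKA hearts, against 859, 591 and 870 CPM in WC hearts (0.44 ± 0.35). Myl1, a myosin light chain of skeletal and atrial muscle, had 111, 18.5 and 77.6 CPM in KKA hearts, against 19.5, 16.5 and 13.5 CPM in WC hearts (2.06 ± 0.54). The list's mean centred level was 0.98, -0.53 and 0.24 in KKA 1, KKA 2 and KKA 3, against -0.95, -1.16 and -1.15 in WC 1, WC 2 and WC 3, and 0.34 to 1.49 in WA hearts. Its median was 0.72 without KKA 1, 1.52 without KKA 2 and 1.28 without KKA 3. The largest difference on the list, 8.51, was that of the atrial gene Myl7, at 469 CPM in KKA 3 and under 1 CPM in KKA 1, KKA 2 and WC hearts. The level of the list in KKA 3 includes this gene. The 5 genes without overlap were Nppa, Ankrd1, Ankrd2, Mybpc2 and Fhl1. Ankrd2 had 0 counts in every WC library and passed the count filter only through KKA and WA libraries. Its p and its separation therefore add no support for the list. Mybpc2, a myosin-binding protein of fast muscle, had 9.69, 5.54 and 5.03 CPM in KKA hearts, against 4.11, 2.13 and 3.14 CPM in WC hearts (1.12 ± 0.38). Fhl1, a sarcomeric adaptor, had 101, 61.7 and 91.0 CPM in KKA hearts, against 51.5, 38.2 and 47.7 CPM in WC hearts (0.89 ± 0.28). The edgeR adjusted p was 0.995 for both.

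**Figure D3:**
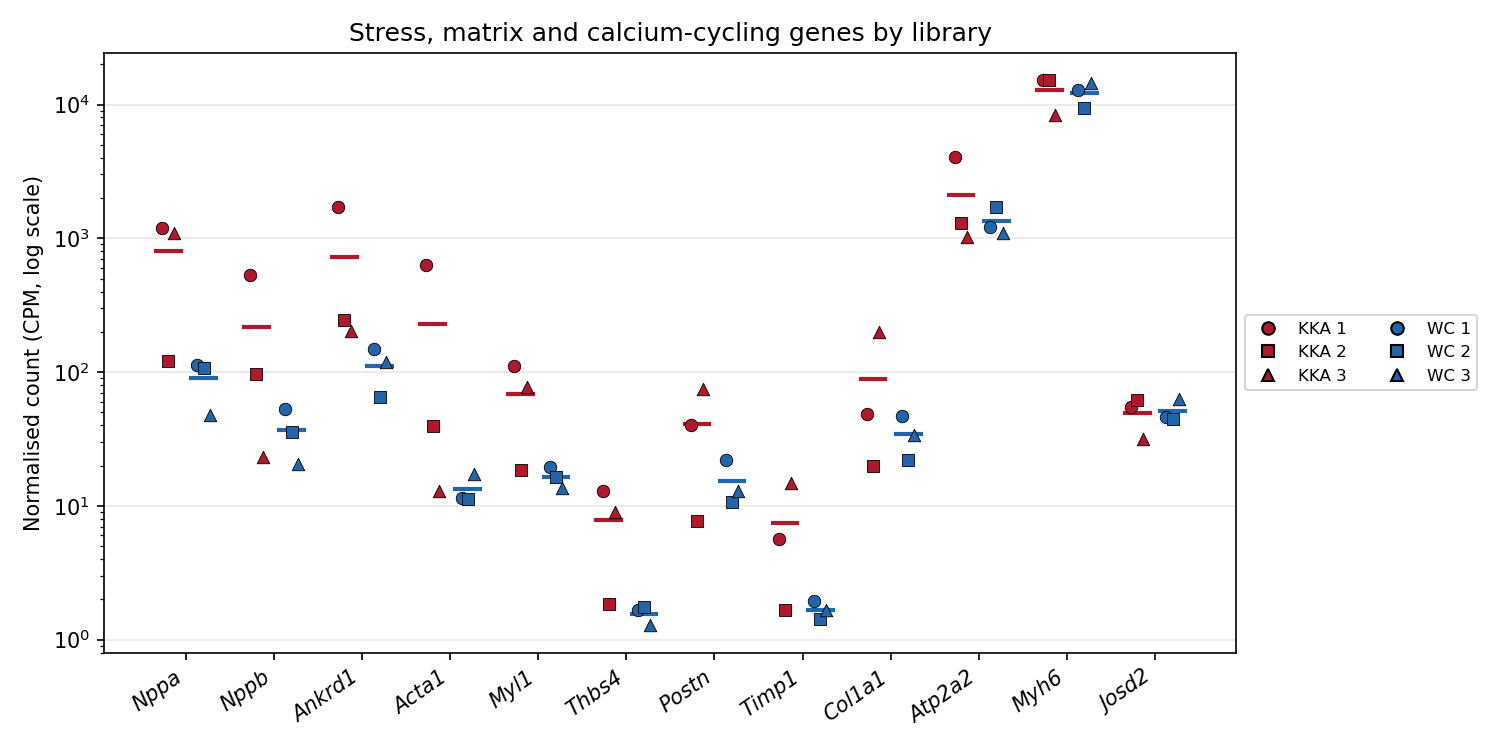
Normalised counts (CPM, log scale) of 12 stress, matrix and calcium-cycling genes in each KKA library (red, left) and WC library (blue, right), with a bar at each group's mean. KKA 1 is highest for Nppa, Nppb, Ankrd1, Acta1 and Atp2a2, KKA 3 is highest for Postn, Timp1 and Col1a1, and KKA 2 lies near the WC libraries for most genes.

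The genes the series is about showed no difference beyond the spread. Josd2 had 54.7, 62.3 and 31.8 CPM in KKA hearts, against 46.2, 44.8 and 62.9 CPM in WC hearts (log2 difference -0.05 ± 0.26, edgeR adjusted p = 0.997). Atp2a2 had 4019, 1310 and 1030 CPM in KKA hearts, against 1223, 1699 and 1098 CPM in WC hearts (0.66 ± 0.51, edgeR adjusted p = 0.995). Of the KKA and WC libraries KKA 1 alone was high, and the Atp2a2 difference was -0.20 without it. WA hearts were high too, at 2495, 3633 and 2571 CPM of Atp2a2, and WA 1 and WA 2 were labelled Ctrl (PBS). Pln, phospholamban, the inhibitor of that pump, had 2804, 1286 and 732 CPM in KKA hearts, against 1418, 1393 and 1199 CPM in WC hearts (0.27 ± 0.48), and Ryr2, the release channel of the sarcoplasmic reticulum, differed by -0.12 ± 0.36. For Myh6, the main myosin heavy chain of adult mouse ventricle, the means were 12900 ± 3905 CPM in KKA hearts and 12300 ± 2641 CPM in WC hearts (SD, n = 3 each), and the sign of its difference of 0.07 depended on the scaling. Slc8a1, the sodium and calcium exchanger, had 192, 108 and 62.8 CPM in KKA hearts, against 54.1, 52.7 and 64.9 CPM in WC hearts (1.08 ± 0.36), so 2 KKA libraries lay above all WC libraries and 1 among them. Over the 26 calcium-handling genes tested, 18 were positive, 1 had an unadjusted p under 0.05, and the median was 0.29, or 0.02 without KKA 1. Kmo, kynurenine 3-monooxygenase, was barely present, at 0.299, 0.473 and 0.849 CPM in KKA hearts, against 0.886, 0.247 and 1.16 CPM in WC hearts (-0.51 ± 0.59, edgeR adjusted p = 0.995). The labels do not say whether Kmo in the sample descriptions refers to this gene.

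Muscle structure and fuel use varied more within KKA hearts than between the groups. Sarcomere genes had positive differences in 28 of 30, with a median of 0.52, and fatty acid oxidation genes in 23 of 25, with a median of 0.50. Their mean centred levels were high in KKA 1 (0.76 and 0.88) and low in KKA 3 (-0.92 and -1.29), with WC libraries between -0.53 and -0.10. Without KKA 1 the medians were 0.01 and -0.36. Nuclear-encoded genes of oxidative phosphorylation gave a median of 0.32 over 44 tested, and -0.45 without KKA 1. Messages encoded by the mitochondrial genome ran the other way between the KKA libraries, at 29.4%, 39.5% and 54.0% of all counts in KKA hearts, against 46.4%, 29.0% and 37.6% in WC hearts. The mean shares were 40.9 ± 12.4% in KKA hearts and 37.7 ± 8.66% in WC hearts (SD, n = 3 each, two-sided exact permutation test p = 0.7), a difference well within the spread. Among single genes of fuel use, Ehhadh, a peroxisomal enzyme of fatty acid oxidation, had 8.65, 6.82 and 6.85 CPM in KKA hearts, against 10.3, 14.9 and 10.8 CPM in WC hearts (-0.69 ± 0.23), with no overlap. Pfkfb2, which sets the level of a glycolysis activator in heart, had 70.7, 62.0 and 41.2 CPM in KKA hearts, against 72.2, 128 and 106 CPM in WC hearts (-0.82 ± 0.30), where KKA 1 and WC 1 nearly touched. Pdk4, which slows glucose oxidation, had 197, 65.9 and 21.6 CPM in KKA hearts, against 14.5, 49.6 and 33.6 CPM in WC hearts (1.54 ± 0.67). Kcnv2, a modifier subunit of potassium channels, had 10.9, 13.9 and 16.6 CPM in KKA hearts, against 24.1, 26.3 and 37.1 CPM in WC hearts (-1.08 ± 0.27, edgeR adjusted p = 0.995 for all 4 genes), and its groups did not overlap.

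Matrix genes had higher values in KKA 3 and, for some genes, KKA 1. Col1a1, the main fibrillar collagen, had 48.8, 20.0 and 198 CPM in KKA hearts, against 47.3, 22.2 and 34.1 CPM in WC hearts. Col3a1 had 92.9, 21.2 and 317 CPM in KKA hearts, against 59.9, 47.1 and 50.0 CPM in WC hearts. Both collagens were highest in KKA 3 and lowest in KKA 2, so the groups overlapped (log2 differences 1.36 ± 0.67 and 1.46 ± 0.70, edgeR adjusted p = 0.995 for both). Postn, periostin of activated fibroblasts, had 40.4, 7.69 and 74.5 CPM in KKA hearts, against 22.1, 10.6 and 13.0 CPM in WC hearts (1.42 ± 0.64). Ccn2, a growth factor of the matrix, had 117, 20.9 and 64.1 CPM in KKA hearts, against 20.6, 27.4 and 20.0 CPM in WC hearts (1.57 ± 0.48). Timp1, an inhibitor of matrix proteases, had 5.66, 1.66 and 14.9 CPM in KKA hearts, against 1.93, 1.43 and 1.65 CPM in WC hearts (2.15 ± 0.64). In all 3, KKA 1 and KKA 3 were above the WC libraries and KKA 2 was not. Ltbp2, which binds microfibrils, differed by 2.59 ± 0.64 in the same order of libraries, and Comp, a cartilage matrix protein also made in scar, by 2.66 ± 0.90. Every WA library also lay above every WC library for Postn, Ccn2, Timp1, Ltbp2 and Col3a1. Levels above WC hearts were thus not particular to KKA hearts. WA hearts had 79.5, 38.1 and 43.6 CPM of Postn, 105, 67.9 and 66.1 CPM of Ccn2, and 5.8, 5.49 and 2.315 CPM of Timp1. For Col1a1 and Comp, WA and WC hearts overlapped. WA 1 and WA 2 were labelled Ctrl (PBS). Among 35 collagen and matrix genes, 29 were positive, 10 had an unadjusted p under 0.05 on the higher side (over all tested genes, 2.35%), and 1 was without overlap, near the 3.66% over all tested genes. The median of 0.80 was 0.11 without KKA 3, and that of 18 fibroblast markers, 0.63, was -0.01 without it. Bambi, a decoy receptor of TGF-beta signalling, lay higher in all KKA libraries. It had 18.5, 7.69 and 5.92 CPM in KKA hearts, against 5.03, 4.63 and 4.07 CPM in WC hearts (1.23 ± 0.36, edgeR adjusted p = 0.995).

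Some macrophage and T cell genes had higher values in all KKA libraries. Ctss, a lysosomal protease of macrophages, had 9.45, 10.4 and 14.8 CPM in KKA hearts, against 6.87, 5.17 and 3.78 CPM in WC hearts (log2 difference 1.13 ± 0.28, edgeR adjusted p = 0.995). Aif1, an actin-binding protein of macrophages, had 2.68, 1.53 and 3.71 CPM in KKA hearts, against 1.36, 0.789 and 1.28 CPM in WC hearts (1.21 ± 0.40). Ccr2, the receptor of monocytes that enter tissue, had 8.59, 7.69 and 9.39 CPM in KKA hearts, against 5.97, 5.51 and 4.53 CPM in WC hearts (0.68 ± 0.26). None of the 3 overlapped between groups. Of 28 macrophage and monocyte genes, 25 were positive, 10 had an unadjusted p under 0.05 and 4 were without overlap, the fourth being Ms4a7. Over all tested genes these shares were 55.7%, 2.35% and 3.66%. The median was 0.66, and 0.41 without KKA 3. The list summed to 265, 532 and 603 CPM in KKA hearts, against 342, 315 and 301 CPM in WC hearts, so KKA 1 did not share the higher level. Cd8a, the co-receptor of cytotoxic T cells, had 2.87, 2.70 and 2.31 CPM in KKA hearts, against 0.726, 0.554 and 1.20 CPM in WC hearts. Its KKA values were close together and above all WC values (1.67 ± 0.75, edgeR adjusted p = 0.995), as were those of Cd8b1, its partner chain, at 0.597, 0.564 and 0.750 CPM in KKA hearts, against 0.478, 0.106 and 0.164 CPM in WC hearts. Of 24 T and NK cell genes, 20 were positive and 6 were without overlap (over all tested genes, 55.7% and 3.66%). Only 1 had an unadjusted p under 0.05, near the 2.35% over all tested genes. Their median of 0.72 was 0.46 without WC 2, the WC library with the lowest summed level. The 19 genes of antigen presentation had a median of 0.31, or 0.15 without WC 2. H2-Aa, a chain of MHC class II, had 60.9, 23.6 and 36.7 CPM in KKA hearts, against 32.6, 10.5 and 20.3 CPM in WC hearts, with overlap (0.94 ± 0.41). Interferon-stimulated genes had a median of 0.06, or -0.24 without KKA 3 and -0.17 with library size as the only scaling, while Ifit1, one of them, was without overlap (0.68 ± 0.28).

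Neutrophil genes belonged to single libraries. S100a9, a calcium-binding protein of neutrophil granules and cytoplasm, had 1.51, 129 and 8.80 CPM in KKA hearts, against 10.2, 68.5 and 9.44 CPM in WC hearts. Ngp, a granule protein of immature neutrophils, had 0, 29.3 and 0.0789 CPM in KKA hearts, against 0.585, 1.77 and 2.35 CPM in WC hearts. KKA 2, and for S100a9 also WC 2, stood far above the rest. All 15 tested neutrophil genes had a positive difference with a median of 0.66, but the median was -2.31 without KKA 2.

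KKA 3 carried messages of atrial muscle and of the heart's surface. Sln, sarcolipin, a regulator of the calcium pump found in mouse atria, had 0.179, 0.488 and 289 CPM in KKA hearts, against 0.0532, 0.0824 and 0.164 CPM in WC hearts. Myl7, the atrial regulatory light chain, had 0.514, 0.854 and 469 CPM in KKA hearts, against 0.567, 0.318 and 0.416 CPM in WC hearts. Myl4, the atrial essential light chain, had 2.21, 1.48 and 385 CPM in KKA hearts, against 2.89, 1.58 and 1.40 CPM in WC hearts. Only KKA 3 of the 6 libraries was high for these atrial genes, and among WA hearts WA 1 also held them, at 35 CPM for Sln, 47.7 for Myl7 and 65.2 for Myl4. The 16 tested atrial genes had a median of 1.73, and 0.0027 without KKA 3, and the tested epicardial and mesothelial genes, also 16, had a median of 1.91, and -2.51 without it. Msln, mesothelin of the surface layer, had 0.0956, 0.259 and 28.1 CPM in KKA hearts, against 0.691, 1.72 and 0.624 CPM in WC hearts, and Upk3b, another surface-layer gene, had 0.0956, 0.107 and 23 CPM in KKA hearts, against 0.833, 0.589 and 0.312 CPM in WC hearts. Both were lower in KKA 1 and KKA 2 than in any WC library. Wt1, a transcription factor of the epicardium and of some endothelium, was also lower in KKA 1 and KKA 2, but KKA 3 did not rise above WC hearts. It had 3.78, 6.16 and 11.2 CPM in KKA hearts, against 12.4, 12.0 and 14.4 CPM in WC hearts (-0.88 ± 0.36, edgeR adjusted p = 0.995). C3, a complement component, had 81.2, 218 and 539 CPM in KKA hearts, against 124, 117 and 108 CPM in WC hearts, and Il33, an alarm cytokine of stromal cells, had 4.01, 3.34 and 36.6 CPM in KKA hearts, against 4.06, 2.65 and 3.05 CPM in WC hearts. For Nppa, which atria make in large amounts, both KKA 3 with these atrial messages and KKA 1 without them were high. Whether atrial tissue in KKA 3 had a part in its values was not tested.

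Endothelial genes lay slightly lower in KKA hearts. Of 21 tested, 19 had a negative difference, 2 had all KKA libraries below all WC libraries (over all tested genes, 3.93%) and 0 had an unadjusted p under 0.05, with a median of -0.21, or -0.09 without KKA 1. Cdh5, the cadherin of endothelial junctions, had 126, 155 and 134 CPM in KKA hearts, against 226, 155 and 208 CPM in WC hearts (-0.51 ± 0.25). Cldn5, a tight junction protein, had 11.1, 28.1 and 9.83 CPM in KKA hearts, against 17.0, 58.1 and 29.6 CPM in WC hearts (-1.10 ± 0.55). Both overlapped between the groups, while Mcam, an adhesion molecule of vessels, did not, at 35.9, 39.7 and 32.8 CPM in KKA hearts, against 45.0, 52.0 and 41.0 CPM in WC hearts (-0.35 ± 0.20, edgeR adjusted p = 0.995 for all 3). Pericyte and smooth muscle genes had a median of 0.0020 over 15 tested.

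**Figure D4:**
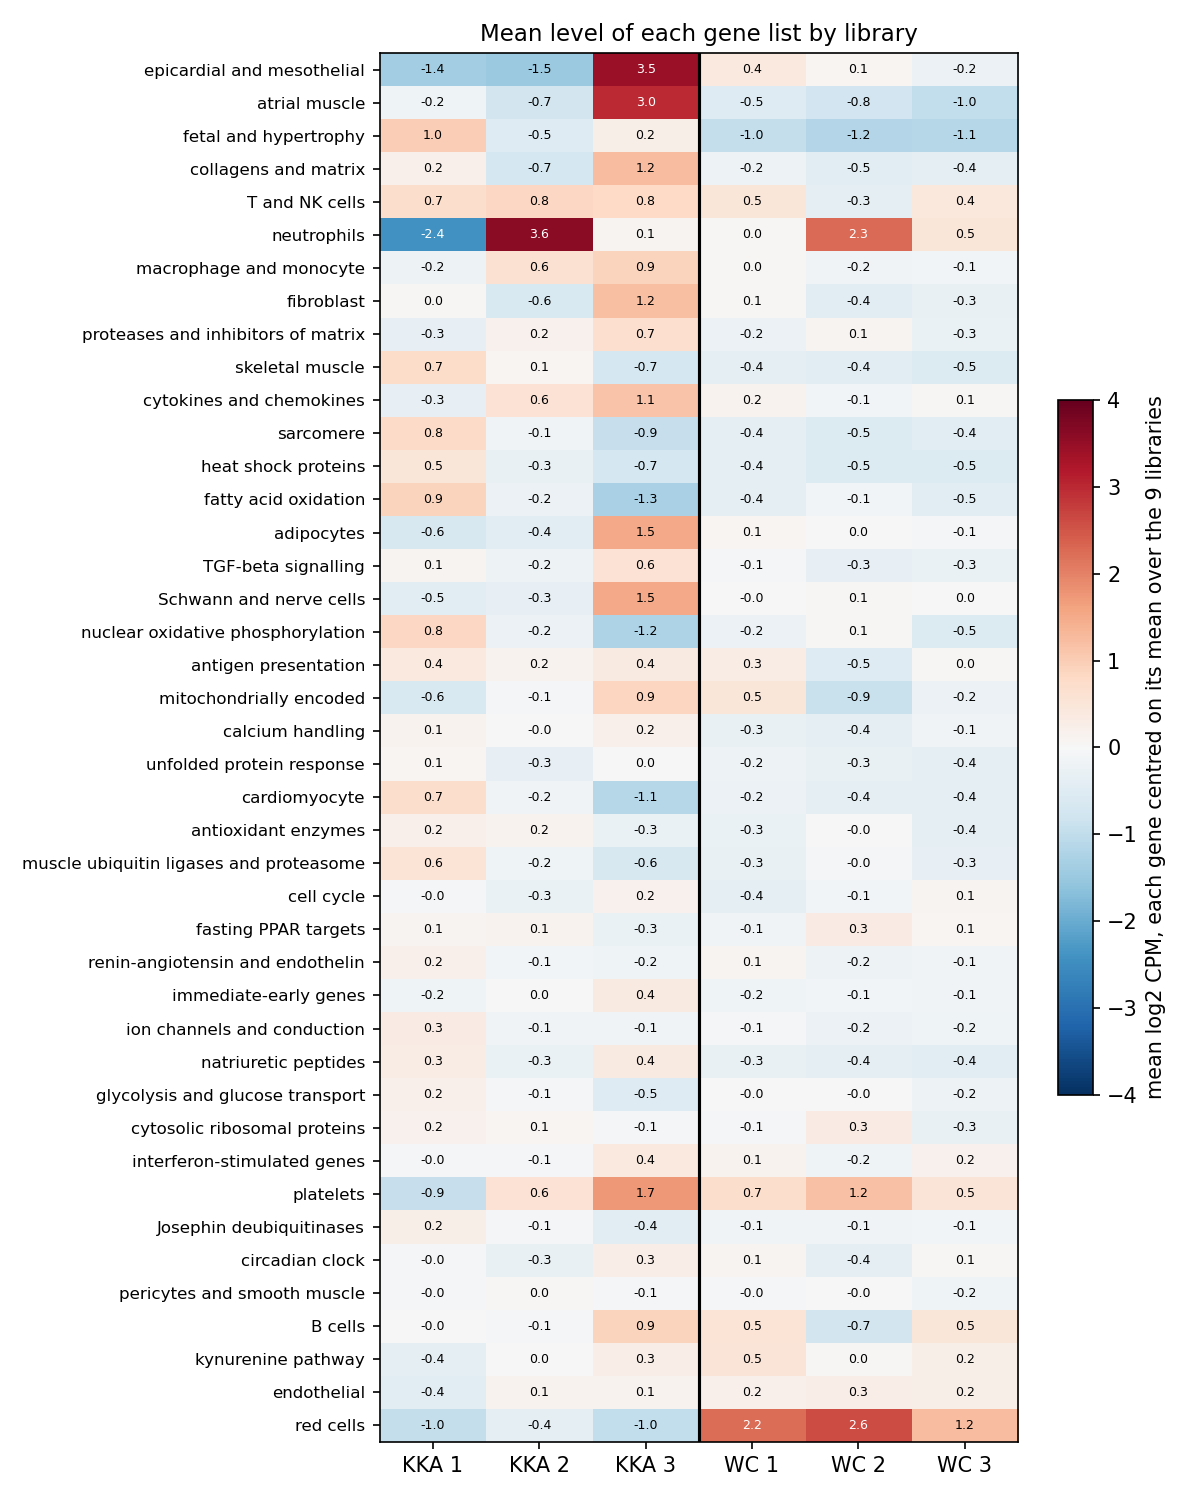
Mean level of each of 42 gene lists in the KKA libraries (left) and WC libraries (right), as log2 CPM with each gene centred on its mean over the 9 libraries, sorted by the median log2 difference. Red cells at the bottom are at 1.2 to 2.6 in WC libraries and -1.0 to -0.4 in KKA libraries, while atrial and epicardial lists at the top are high in KKA 3 alone and neutrophils in KKA 2 and WC 2.

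Genes of stress and cell division gave small numbers of separated genes. Hspa1b, an inducible heat shock protein, had 2.61, 3.89 and 3.43 CPM in KKA hearts, against 1.81, 0.966 and 1.26 CPM in WC hearts (1.3 ± 0.39), and Hspa1a, its near-identical neighbour that shares reads with it, differed by 0.86 ± 0.37. Heat shock protein genes had a median of 0.51 over 23 tested, or -0.13 without KKA 1. Hmox1, which breaks down haem, had 5.72, 17.7 and 11.9 CPM in KKA hearts, against 6.22, 7.22 and 4.43 CPM in WC hearts, with overlap (0.98 ± 0.37). Ube2c, which drives exit from mitosis, had 0.848, 0.717 and 0.612 CPM in KKA hearts, against 4.29, 3.03 and 1.13 CPM in WC hearts (-1.95 ± 0.68). Cenpf, a kinetochore protein, had 2.59, 1.85 and 3.10 CPM in KKA hearts, against 6.25, 3.7 and 3.29 CPM in WC hearts (-0.81 ± 0.36). Both dividing-cell genes were without overlap, and they were the only 2 of 34 cell cycle genes tested to lie lower in this way. That is near the 3.93% over all tested genes. In 1 of the 34 all KKA libraries lay above all WC libraries (over all tested genes, 3.66%). The list had a median of 0.20, or -0.06 without KKA 3. Nr4a3, an immediate-early nuclear receptor, had 4.07, 1.46 and 2.55 CPM in KKA hearts, against 1.21, 0.930 and 1.26 CPM in WC hearts (1.25 ± 0.39, edgeR adjusted p = 0.995 for all 6 genes).

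The remaining lists showed medians near those of all tested genes or followed single libraries. Cardiomyocyte markers were positive in 13 of 16 with a median of 0.28, or -0.32 without KKA 1. Skeletal muscle genes had a median of 0.55 over 14 tested, or -0.05 without KKA 1, and genes of muscle ubiquitin ligases and the proteasome a median of 0.22, or -0.15 without KKA 1. The unfolded protein response list had a median of 0.28 and antioxidant enzymes one of 0.27, or 0.13 and 0.07 without KKA 1. Matrix proteases and their inhibitors had a median of 0.59, or 0.13 without KKA 3, and TGF-beta signalling genes 0.38, or 0.07 without KKA 3. Cytokines and chemokines had a median of 0.54, or 0.16 without KKA 3 and 0.32 without WC 2. KKA 3 also carried the adipocyte list, whose median of 0.42 was -0.30 without it, and the Schwann and nerve cell list, whose median of 0.34 was -0.24 without it. The 13 mitochondrially encoded genes had a median of 0.30, or -0.23 without KKA 3. Fasting targets of the PPAR receptors had a median of 0.15 and glycolysis genes 0.09, and both were -0.19 without KKA 1. Genes of ion channels and conduction had a median of 0.12, or -0.06 without KKA 1. The renin-angiotensin and endothelin list had a median of 0.15, the natriuretic peptide list 0.11, immediate-early genes 0.13, platelets 0.05, cytosolic ribosomal proteins 0.06, the Josephin deubiquitinases 0.02 and the circadian clock 0.02. Under library-size scaling alone the last 6 of these medians lay between -0.28 and -0.07, so their direction depended on the scaling. B cell genes had a median of -0.04 and kynurenine pathway genes one of -0.10, with 10 of 17 and 7 of 12 negative. Without KKA 3 the medians were -0.72 for platelets, -0.43 for B cells, -0.18 for natriuretic peptides, -0.18 for the circadian clock, -0.09 for the renin-angiotensin list and -0.04 for immediate-early genes. The B cell median was 0.17 without KKA 1 and 0.11 without KKA 2, and the Josephin median -0.13 without KKA 1.

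A few genes at low level also stood apart. Ankrd2, a stretch-responsive relative of Ankrd1, had 26, 18 and 5 counts in KKA hearts and 0 counts in every WC library. The KKA mean of 0.228 CPM was 5.14-fold the WC level when each WC library is set to a floor of 3 counts. KKA 3, at 0.0987 CPM, lay closer to that floor of 0.0444 CPM than the mean did. WA hearts had 25, 13 and 30 counts, so the gene passed the count filter without any WC count. Cyp1a1, a xenobiotic-metabolising enzyme that was listed with the kynurenine pathway, had 2, 2.36 and 2.53 CPM in KKA hearts, against 22.0, 3.92 and 1.92 CPM in WC hearts, a difference (-2.01 ± 0.70) that came from WC 1. Edn3, endothelin 3, had 9.52, 1.25 and 0.829 CPM in KKA hearts, against 1.26, 0.754 and 0.758 CPM in WC hearts. Of these libraries KKA 1 alone was high, while WA hearts had 3.625, 11.4 and 5.4 CPM of Edn3. Agtr1a, the receptor of angiotensin II, had 12.7, 15.3 and 17.8 CPM in KKA hearts, against 22.2, 0.860 and 20.2 CPM in WC hearts, so that WC 2, given Ang II, was 1 low library among 6. Jchain, which joins secreted antibody chains, had 4.72, 0.641 and 3.30 CPM in KKA hearts, against 0.567, 1.03 and 0.565 CPM in WC hearts.

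Leaving out single KKA libraries changed the sign of many list medians, and the red-cell, fetal, T and NK cell, macrophage and endothelial lists were among those that kept theirs under each of the 3 omissions. With PBS or Ang II as a covariate edgeR called 0 genes (824 had an unadjusted p under 0.05), and the red-cell median was -3.28.

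**Figure D5:**
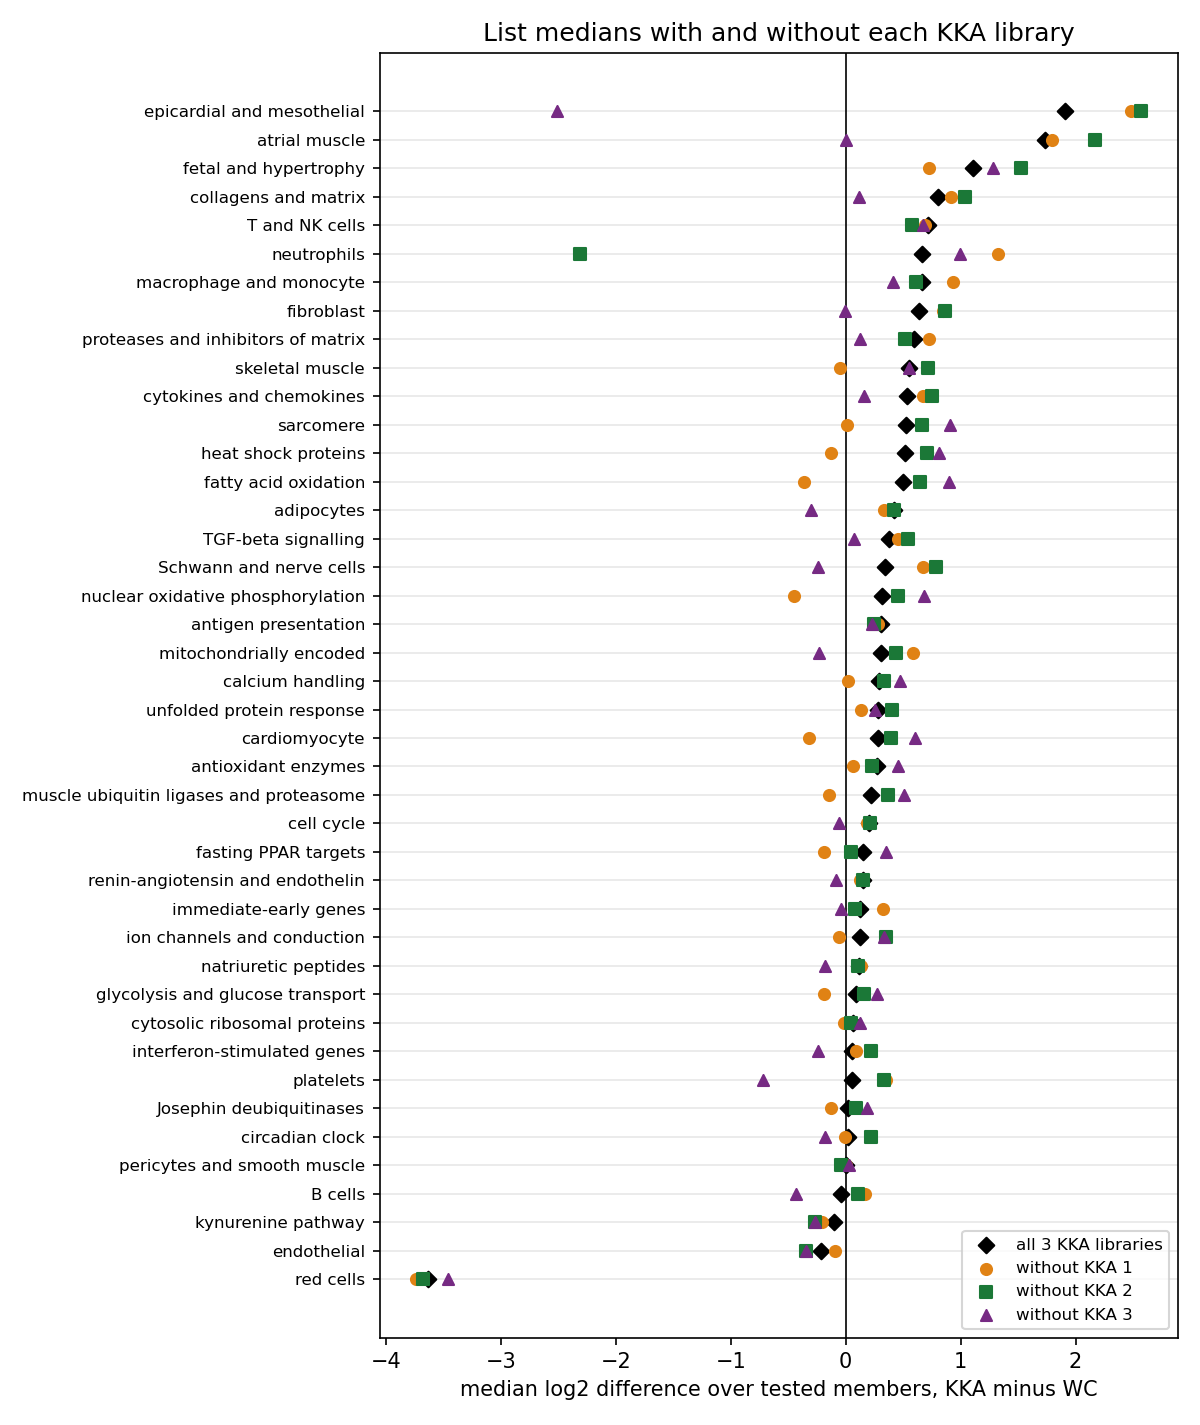
Median log2 difference, KKA minus WC, over the tested members of each of 42 gene lists, with all 3 KKA libraries (black) and without KKA 1 (orange), KKA 2 (green) or KKA 3 (purple). The red-cell median stays between -3.74 and -3.46, the epicardial median is -2.51 without KKA 3, and the neutrophil median is -2.31 without KKA 2.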

How the data were processed

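Heart poly(A) RNA was measured in 9 libraries, and the 6 titled KKA or WC were compared. The authors deposited whole-number counts per gene for 55401 Ensembl genes, per the file headers, with no scaling for depth or length. Bowtie 0.12.2, HISAT2 2.0, StringTie 1.3.0 and build mm8 are named in the submitters' processing notes, without roles. How genes were counted, on which annotation and with or without strand is not given in the sources used here, so overlapping and antisense genes may share counts. Gene symbols came from an identifier table and matched 55141 genes. No coordinates of genes are given, because the builds differ, apart from the promoters.

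All 9 libraries were fitted with edgeR 4.0.16 in R 4.3.3 (quasi-likelihood F test, TMM, filterByExpr), with groups by title letters and 6 residual degrees of freedom, and a call was an adjusted p under 0.05 by the Benjamini-Hochberg method over 19091 genes. The SE comes from the difference and the F statistic and is no separate estimate of precision. The fit was tested on simulated counts with known changes in well-counted genes. The simulation set the dispersion, edgeR's measure of spread between libraries, to 0.05, while the data had a common dispersion of 0.156. Because the simulated libraries varied less, that test does not show which changes the fit could find here. Replicate numbers follow sample order. No 2 libraries were duplicates (chi-square per degree of freedom 60.6 or more between pairs of the 6).

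Genes named were 16 index genes, the 10 genes of smallest p per direction without overlap whose mean log2 CPM reached 1, and the 2 members of smallest p in each of 42 lists. This gave 105 genes, of which 64 are described, and another 14 in the list of genes followed through the alternatives were chosen after their values were seen, as was Tnnt2 among the markers fixed for heart muscle. The comparison, the members and the lists were chosen with earlier results of these data known. Some lists share genes, and some genes are not reported here. Alternatives were DESeq2 1.42.0 (size factors, Wald test), limma 3.58.1 voom, library-size scaling, other count filters, a fit of 6 libraries, treatment as a covariate, leaving out mitochondrial, haemoglobin and Nppa genes, and leaving out each library.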

Additional observations from a re-analysis of the deposited data

How the results depend on the processing

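No paired analysis was possible because the replicate numbers follow sample order and the title numbers are not shared between groups. The count of called genes, 0 as reported, was 7 when libraries were scaled by their size alone, 4 without a low-count filter and 27 by DESeq2's Wald test, and it ranged from 0 to 7 when single libraries were left out. It was 7 without KKA 2, 2 without KKA 3, 3 without WA 3 (Hba-a1, Hba-a2 and Alas2), 1 without WC 1 and 1 without WC 3 (Tent5c). The count at an unadjusted p under 0.05, 671 as reported, was 347 under that scaling and ranged from 442 to 1575 when single libraries were left out, with 1575 without KKA 2, 1441 without KKA 3 and 442 without WC 3. The cause of these shifts was not tested. The difference in mitochondrial share, 3.29 percentage points, ranged from -3.23 to 9.07 when single libraries were left out, with the sign reversed without KKA 3 and without WC 2 (-1.03). The haemoglobin share kept its direction throughout.

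Of the 78 genes followed, 65 kept their sign under each of the 18 alternatives that gave them an estimate. The other 13 did not, and none of those 13 was called in any. Some genes had fewer estimates, among them Nppa and the haemoglobin genes with 17, and Ankrd2 with 16. Myh6 was -0.038 under library-size scaling and ranged from -0.092 to 0.30 when single libraries were left out. With limma-voom, Ngp was -2.83, Msln -0.56, Upk3b -0.27 and S100a9 -0.69, and Fech was 0.086 with treatment as a covariate. Ranges when single libraries were left out were -0.23 to 0.19 for Josd2, -0.20 to 0.99 for Atp2a2, -0.41 to 0.61 for Pln, -0.39 to 0.19 for Ryr2, -0.0031 to 1.85 for Col1a1, -0.47 to 0.54 for Agtr1a, -5.46 to 3.22 for Ngp, -0.30 to 0.024 for Fech, -0.074 to 6.64 for Myl4, -2.53 to 3.84 for Msln, -2.49 to 4.33 for Upk3b and -2.52 to 2.24 for S100a9. Of the 42 list medians, 16 kept their sign under all 18 alternatives and 26 did not.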
